A study of Mus musculus with 6 samples.

Results

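Interferon-stimulated genes were examined in RNA-seq of tibialis anterior (TA) muscle from iMSBmal1 knockout mice, as a set of 42 of the 55401 gene identifiers counted. The set was listed by symbol, with earlier results of these data known, and holds effectors that type I or type II interferon induces. The list leaves out antigen processing genes and most sensors. Of the 42 members, 40 passed the low-count filter and were tested among 17222 genes. Oas3 and Mx1 did not pass it and are given as values without a test.

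Interferons are secreted proteins that alert cells to viruses and other microbes. Type I interferon (the alpha and beta forms) acts through receptors coupled to the kinases JAK1 and TYK2, and a complex that holds STAT2 and IRF9 then binds the interferon-stimulated response element in target promoters. Type II interferon (interferon gamma), made mainly by T and natural killer (NK) cells, acts through JAK1 and JAK2 on gamma-activated sites in target promoters, and it is a strong inducer of IRF1 and of the immunity-related and guanylate-binding GTPases. In skeletal muscle the same genes are well known from inflammatory myopathies, and both muscle fibres and the resident or infiltrating cells between them can express them.

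All 6 libraries came from TA muscle of C57BL/6 mice of genotype HSA-MCM-Bmal1-/-, in which a tamoxifen-inducible Cre under the human skeletal actin promoter deletes Bmal1, a core clock gene, in skeletal muscle fibres. Mice aged 12 to 16 weeks were given tamoxifen at 2 mg daily over 5 days, adeno-associated virus (AAV) was injected into the muscle 4 weeks later, and tissue was taken 4 weeks after that. The AAV-GFP group (n = 3) received a vector for green fluorescent protein, and the AAV-RBM20 group (n = 3) received a vector with HA-tagged mouse Rbm20 cDNA under a CMV promoter, whose product is a splicing regulator of titin. The methods give a higher dose for the RBM20 vector than for the GFP vector, so the transgene, the vector and its dose cannot be told apart, and no muscle with intact Bmal1 and no uninjected muscle was analysed here. The labels do not say that each library came from a separate animal, and the p-values measure the spread between these libraries. Lane labels of the paper's blots list both vectors in opposite legs of the same mouse for some mice. Whether the sequenced muscles were paired in this way is not given, and the main test treats the libraries as unpaired.

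Total counts ranged from 41400132 to 54226618 per library, and 3 counts, the limit that a count of 0 allows for counting error only, corresponded to 0.055 to 0.0746 CPM, which are counts scaled to a common library size. All CPM values below use TMM-scaled library sizes. Rbm20 was at 170, 165 and 164 CPM in AAV-GFP replicates 1, 2 and 3 and at 499, 545 and 406 CPM in AAV-RBM20 replicates 1, 2 and 3. The transcript was thus higher in every library that carried the Rbm20 vector. The main edgeR test still called 0 of 17222 genes at an adjusted p of 0.05, so it did not call Rbm20 either. The paper reports a significant increase of Rbm20 expression with this vector in knockout muscle. A gene that this test did not call is therefore not shown to be unchanged. The Bmal1 transcript was detected in all of these knockout libraries, at 31.0, 36.0 and 38.1 CPM in AAV-GFP against 24.5, 27.6 and 26.9 CPM in AAV-RBM20, with groups that did not overlap (log2 fold change -0.41 ± 0.13 SE, adjusted p = 0.618 by edgeR and 0.109 with the block). The tissue label was checked on 8 skeletal muscle fibre genes, such as Acta1 and Ckm, which were all detected in every library and summed to 78800 to 130000 CPM. AAV-RBM20 replicate 3 had the lowest of these sums. Over all genes, the libraries numbered 3 stood apart in both groups: the chi-square per degree of freedom between counts was 512 and 545 for AAV-GFP replicate 3 against replicates 2 and 1, and 223 and 224 for AAV-RBM20 replicate 3 against replicates 1 and 2, but 15.1 and 24.9 between replicates 1 and 2 of each group.

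No interferon-stimulated gene passed an adjusted p of 0.05 between AAV-RBM20 and AAV-GFP, yet all 40 tested members had a fitted log2 fold change above 0. The median was 0.37, and 37 of the 42 members had their highest CPM in AAV-RBM20 replicate 3. Among the 40 tested this count was 35, against 16.5% of all genes tested. The immunity-related GTPase Iigp1 stood at 277 CPM in that library and at 17.0 to 19.7 CPM in the other 5. Without that library, the median over the members was 0.09 and 23 of the 40 had a log2 fold change above 0. Herc6, Parp14, Mx2 and Cmpk2 were among the 7 tested members whose 3 AAV-RBM20 libraries all lay above AAV-GFP, against 7.71% of all genes. Their log2 fold changes were 0.62, 0.73, 0.69 and 0.33, and 0.40, 0.46, 0.74 and 0.31 without AAV-RBM20 replicate 3. The sign of these values follows from the choice of genes with ranges apart.

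The promoters of the members were searched for the binding motifs of both interferon types. RefSeq windows on GRCm38.p6, from 250 bases before to 50 bases after the transcription start, were matched for 31 of the 42 members. The letters GAAA, any 2 bases and GAAA again, the core of the interferon-stimulated response element, were searched on both strands, with overlapping matches allowed. They were present in 16 of the 31 members (51.6%) and in 3.99% of 27025 genes with a window. All 5 of the GTPases with a window held them, as did 3 of 4 IFIT genes, 3 of 4 genes of membrane and nucleotide restriction and 3 of 5 nucleic acid-activated effectors. They were in 1 of 4 transcription factors, 1 of 3 genes of the ISG15 group, 0 of 5 other effectors and 0 of 1 gene of the PARP group. The letters TTCNNNGAA, the gamma-activated site, were present in 9 of the 31 members (29%) and in 9.55% of all genes with a window. A match is a description of the letters and not of a bound site.

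Ifit3 is shown because it was the only member that met the rule for printing. Igtp, Irgm1, Gbp2, Gbp7 and Gbp3 are all the GTPases that had a window. They were added after the high values of GTPases in AAV-RBM20 replicate 3 were seen. The windows lie at chr19:34583279-34583578 (plus strand) for Ifit3, chr11:58199306-58199605 (plus strand) for Igtp, chr11:48871371-48871670 (minus strand) for Irgm1, chr3:142620413-142620712 (plus strand) for Gbp2, chr3:142530086-142530385 (plus strand) for Gbp7 and chr3:142559794-142560093 (plus strand) for Gbp3. Each is written 5′ to 3′ on the strand of its gene, and the capitals mark this 10-base core or its reverse complement.
Ifit3: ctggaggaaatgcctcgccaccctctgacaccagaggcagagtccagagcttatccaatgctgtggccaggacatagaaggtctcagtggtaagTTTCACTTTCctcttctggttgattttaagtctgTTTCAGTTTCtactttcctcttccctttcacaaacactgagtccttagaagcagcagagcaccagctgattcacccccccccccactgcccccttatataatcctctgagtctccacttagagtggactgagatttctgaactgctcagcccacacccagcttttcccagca
Igtp: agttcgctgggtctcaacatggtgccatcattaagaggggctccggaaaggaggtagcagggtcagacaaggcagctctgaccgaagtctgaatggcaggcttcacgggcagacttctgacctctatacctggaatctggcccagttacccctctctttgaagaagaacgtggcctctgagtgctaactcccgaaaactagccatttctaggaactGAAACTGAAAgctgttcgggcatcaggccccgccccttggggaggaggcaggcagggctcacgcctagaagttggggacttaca
Irgm1: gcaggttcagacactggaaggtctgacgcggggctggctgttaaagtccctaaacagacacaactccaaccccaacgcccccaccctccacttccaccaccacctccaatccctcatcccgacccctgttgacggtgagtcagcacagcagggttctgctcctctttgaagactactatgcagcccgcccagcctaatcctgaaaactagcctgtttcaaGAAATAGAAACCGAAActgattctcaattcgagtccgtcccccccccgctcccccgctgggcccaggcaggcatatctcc
Gbp2: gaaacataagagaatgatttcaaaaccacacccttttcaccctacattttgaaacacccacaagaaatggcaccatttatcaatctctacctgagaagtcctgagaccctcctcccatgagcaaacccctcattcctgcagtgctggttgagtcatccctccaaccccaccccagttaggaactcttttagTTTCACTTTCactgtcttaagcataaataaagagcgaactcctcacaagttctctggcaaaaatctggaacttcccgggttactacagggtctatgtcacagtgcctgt
Gbp7: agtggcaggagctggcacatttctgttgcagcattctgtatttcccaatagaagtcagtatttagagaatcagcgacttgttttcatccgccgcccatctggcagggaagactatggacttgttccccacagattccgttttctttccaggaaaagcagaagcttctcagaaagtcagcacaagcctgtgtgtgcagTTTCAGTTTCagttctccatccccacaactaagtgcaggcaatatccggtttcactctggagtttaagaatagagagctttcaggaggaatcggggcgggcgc
Gbp3: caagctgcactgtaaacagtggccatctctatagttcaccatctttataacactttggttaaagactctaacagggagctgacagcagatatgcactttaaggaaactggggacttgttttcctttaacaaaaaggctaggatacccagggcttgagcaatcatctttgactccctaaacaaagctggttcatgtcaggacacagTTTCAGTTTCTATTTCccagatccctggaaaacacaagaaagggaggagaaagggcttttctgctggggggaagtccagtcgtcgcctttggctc
The first marked base of Ifit3 lay 156 bases before the start, and a second match began 122 bases before it. In the GTPases the first match lay closer, at 34 bases before the start in Igtp, 30 in Irgm1, 59 in Gbp2, 53 in Gbp7 and 45 in Gbp3. Irgm1 and Gbp3 each held a second match that overlapped the first, at 24 and 39 bases before the start.

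Over the whole set, 0 of 40 members passed an adjusted p of 0.05 by the quasi-likelihood test of edgeR, where 0% of all genes tested did. Blocked by replicate number, the count was 0 of 40 against 0.145% of all genes. DESeq2 called 0 of the 38 members that received an adjusted p, against 0.436% of all genes, and limma-voom called 0 of 40 against 0%. At an unadjusted p under 0.05 in edgeR, 5 members were higher in AAV-RBM20 (Herc6, Oasl2, Mx2, Iigp1 and Parp14) against 4.08% of all genes, and 0 were lower against 3.82%. The smallest adjusted p of a member was 0.618 by edgeR and 0.132 with the block.

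The fitted differences leaned to AAV-RBM20 with all 6 libraries. They also did when any single library other than AAV-RBM20 replicate 3 was left out, with medians of 0.33 to 0.54. With all 6, all 40 had a log2 fold change above 0, where 51.3% of all genes did, and the range over the members was 0.042 to 2.45. Without AAV-RBM20 replicate 3, 23 of 40 members were above 0, against 52.7% of all genes, and the range was -0.89 to 0.74. Without both libraries numbered 3, the median over the members was 0.098, where the median over all genes was 0.011. The plot of fitted differences shows, for each gene, the fit to all 6 libraries and the fit without AAV-RBM20 replicate 3. Members share regulators and cells of origin and are not independent of each other.

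**Figure D1:**
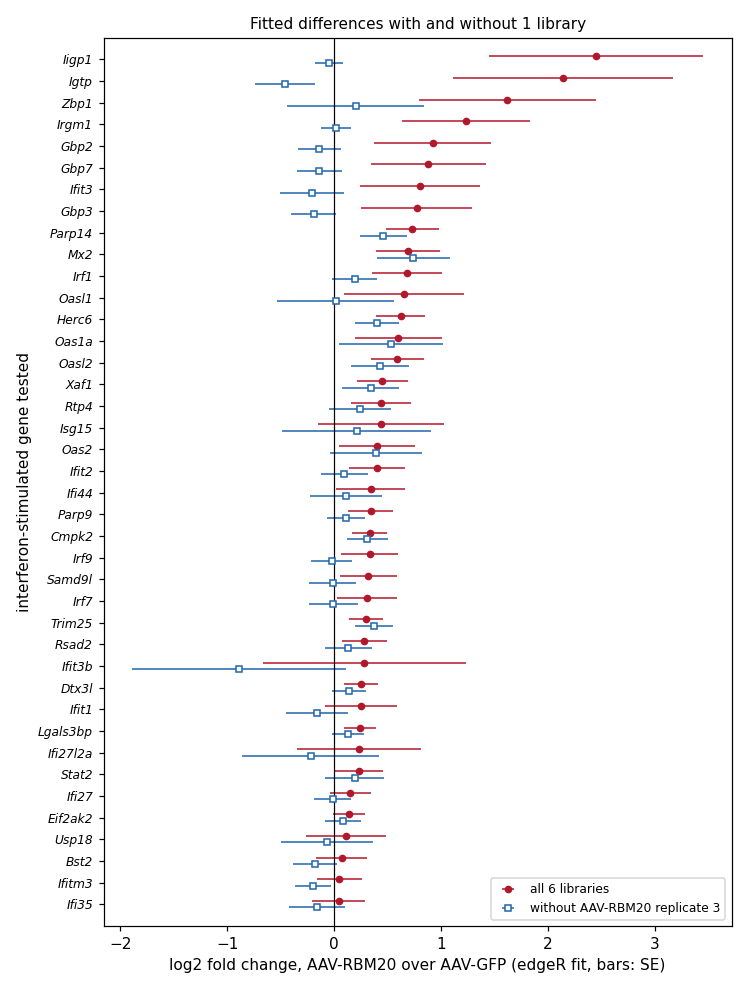
Fitted log2 fold changes of the 40 tested interferon-stimulated genes, AAV-RBM20 over AAV-GFP, with bars of 1 standard error. Filled red circles are the fit to all 6 libraries (3 per group), open blue squares the fit without AAV-RBM20 replicate 3. All red circles lie above 0, from 0.042 to 2.45, and 23 of the 40 blue squares do.

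Group ranges that did not overlap, with AAV-RBM20 higher, were found for 7 of the 40 tested members, against 7.71% of all genes, and for Mx1 among the members not tested. None of the 40 had AAV-RBM20 lower with ranges apart, against 9.04% of all genes. The 7 were Herc6, Trim25, Oas1a, Oasl2, Mx2, Cmpk2 and Parp14. For each of them the exact two-sided permutation test of log2 CPM gave p = 0.1, the smallest that 3 against 3 libraries allow. Ranges apart fix that value, so the test adds nothing to them.

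Within AAV-RBM20, replicate 3 stood apart from replicates 1 and 2. CPM in AAV-RBM20 replicate 3 was more than 2 times the mean of AAV-RBM20 replicates 1 and 2 for 13 of 40 tested members, against 4.11% of all genes, and the median ratio over the members was 1.56, where it was 0.999 over all genes. In AAV-GFP, replicate 3 exceeded 2 times the mean of its replicates 1 and 2 for 4 of 40 members (Isg15, Ifit3b, Zbp1 and Ifi27l2a), against 4.81% of all genes, with a median ratio of 1.16. The median log2 CPM over the members was 2.23, 2.24 and 2.13 in AAV-GFP replicates 1, 2 and 3 and 2.18, 2.29 and 2.86 in AAV-RBM20 replicates 1, 2 and 3. The first 2 AAV-RBM20 libraries thus lay among or just above the AAV-GFP libraries, and the third lay above all of them.

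**Figure D2:**
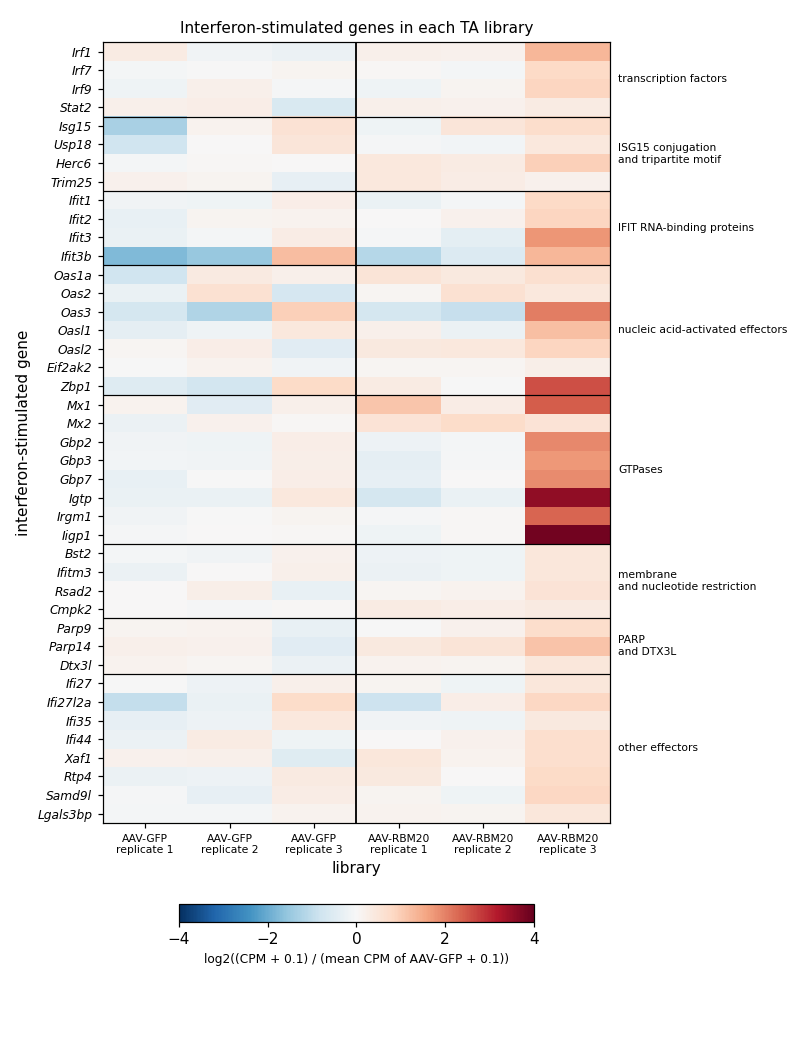
Level of each of the 42 interferon-stimulated genes (rows, grouped by role) in each of the 6 TA libraries (columns), as log2 of CPM + 0.1 over the mean CPM of AAV-GFP + 0.1. Red is above and blue below the AAV-GFP mean. The last column, AAV-RBM20 replicate 3, is the highest library for 37 of the 42 genes, and the darkest cells are Iigp1 and Igtp.

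Interferon ligands were at or near 0 in all libraries. Of 10 ligand genes (Ifna1, Ifna2, Ifna4, Ifna5, Ifnb1, Ifne, Ifnk, Ifng, Ifnl2 and Ifnl3), none passed the low-count filter. Ifng, which encodes interferon gamma, had 0 counts in each AAV-GFP library and 2, 0 and 4 counts in AAV-RBM20 replicates 1, 2 and 3. Ifna2 had 1 count, in AAV-RBM20 replicate 2, and the other 8 ligands had 0 counts in every library. At this depth no ligand could be compared between the groups, since 4 counts are close to the limit that a count of 0 allows.

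The receptors and signalling genes did not pass the threshold either. Of 30 pathway genes outside the set (ligands, receptors, kinases and transducers, inhibitors and other interferon regulatory factors), 19 were tested. Of these, 13 had a log2 fold change above 0, against 51.3% of all genes. In edgeR 0 reached an unadjusted p under 0.05, against 4.08% of all genes higher and 3.82% lower, and the smallest adjusted p was 0.632. Ranges were apart with AAV-RBM20 lower for Ifngr2 and Jak1 (log2 fold changes -0.30 and -0.28) and higher for Ifnar2 and Tyk2 (0.36 and 0.16). These genes were added after their values were seen. Irf8, a transcription factor of myeloid cells that interferon gamma induces, was at 5.56, 6.25 and 7.96 CPM against 6.82, 6.32 and 15.7 CPM. Ptpn6, which encodes the haematopoietic phosphatase SHP-1, was at 0.812, 0.647 and 1.52 CPM against 1.06, 0.995 and 3.03 CPM. Both were thus highest in AAV-RBM20 replicate 3. Socs1, the feedback inhibitor of JAK kinases, was at 0.812, 2.52 and 0.665 CPM against 1.03, 3.11 and 1.89 CPM, with its highest values in the libraries numbered 2 of both groups.

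Among the transcription factors (Irf1, Irf7, Irf9 and Stat2), all 4 had a log2 fold change above 0, with a median of 0.32, and 2 of 4 did without AAV-RBM20 replicate 3, with a median of 0.092. Irf1 (chr11:53770014-53778374), an early target of interferon gamma, was at 10.5, 7.69 and 7.11 CPM in AAV-GFP and at 9.75, 9.43 and 21.4 CPM in AAV-RBM20. Replicates 1 and 2 of AAV-RBM20 lay inside the AAV-GFP range (log2 fold change 0.68 ± 0.33 SE, adjusted p = 0.642 by edgeR, and 0.19 without AAV-RBM20 replicate 3). Irf9, the DNA-binding subunit of the type I complex, was at 5.98, 7.76 and 6.5 CPM against 5.96, 7.24 and 12.2 CPM, with a log2 fold change of 0.33 that became -0.025 without AAV-RBM20 replicate 3. Irf7, which amplifies type I interferon production, was at 2.26 to 2.62 CPM in AAV-GFP and at 2.51, 2.26 and 4.24 CPM in AAV-RBM20. Stat2, the type I transducer, differed from the other 3 in that its outlying value was low and in AAV-GFP, where it was at 10.4, 11.0 and 5.87 CPM, against 10.4, 10.3 and 11.4 CPM in AAV-RBM20.

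The ISG15 and tripartite motif group held members whose groups did not overlap. Herc6 (chr6:57581000-57664632), the main ligase for ISG15 in mice, was at 2.48, 2.71 and 2.62 CPM in AAV-GFP and at 3.52, 3.31 and 5.19 CPM in AAV-RBM20. Every AAV-RBM20 library was above every AAV-GFP library, with a log2 fold change of 0.62 ± 0.23 SE (adjusted p = 0.618 by edgeR) that was 0.40 without AAV-RBM20 replicate 3. Trim25, a ubiquitin ligase that activates the RNA sensor RIG-I, was at 20, 19.1 and 14.3 CPM against 23.8, 22.0 and 20 CPM. It was the only member of this group with its lowest AAV-RBM20 value in replicate 3 (log2 fold change 0.30 ± 0.16 SE, adjusted p = 0.654), and its groups were apart by less than the rounding of these values. Isg15, the ubiquitin-like modifier itself, was low at 0.123, 0.503 and 0.722 CPM against 0.385, 0.672 and 0.803 CPM, and its groups overlapped. Usp18, which removes ISG15 and restrains the type I receptor, had means of 1.48 ± 0.658 (SD, n = 3) and 1.61 ± 0.354 CPM (SD, n = 3), with its highest library in AAV-GFP.

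The IFIT genes encode proteins that bind viral RNA. All 4 had a log2 fold change above 0, with a median of 0.34, and without AAV-RBM20 replicate 3 only Ifit2 did and the median was -0.19. Ifit3 (chr19:34583531-34588731), whose promoter with 2 response element cores is printed above, was at 1.48, 1.73 and 2.24 CPM in AAV-GFP and at 1.74, 1.37 and 6.38 CPM in AAV-RBM20. Its near-identical neighbour Ifit3b (chr19:34607970-34613401) was at 0.443, 0.551 and 4.26 CPM against 0.733, 1.17 and 4.53 CPM. The paralogs therefore differed in AAV-GFP replicate 3, where Ifit3b was 8.56 times the mean of the other 2 libraries of its group and Ifit3 1.4 times. The split of reads between them is uncertain, because 31.7% of the 100-base words of Ifit3 exons also occur in Ifit3b, and 27.4% of those of Ifit3b occur in Ifit3. Leaving out AAV-GFP replicate 3 moved the log2 fold change of Ifit3b from 0.28 to 2.10, and leaving out AAV-RBM20 replicate 3 moved it to -0.89. Ifit2 was at 3.22, 4.31 and 4.39 CPM against 4.0, 4.45 and 7.27 CPM (log2 fold change 0.40 ± 0.26 SE, adjusted p = 0.682), and Ifit1 at 1.49 to 2.09 CPM against 1.41 to 3.05 CPM.

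The nucleic acid-activated effectors are enzymes and sensors that double-stranded or Z-form nucleic acids switch on. This was the largest group in which every tested member stayed above 0 without AAV-RBM20 replicate 3: 6 of 6, with a median of 0.30 in place of 0.60. Zbp1 (chr2:173206612-173218923), a Z-nucleic acid sensor that triggers cell death, was at 0.271, 0.216 and 0.798 CPM in AAV-GFP and at 0.568, 0.423 and 3.05 CPM in AAV-RBM20. Both groups had their highest value in replicate 3, and each AAV-RBM20 library exceeded the AAV-GFP library of the same number. The log2 fold change was 1.62 ± 0.83 SE (adjusted p = 0.654), with the block 1.43 ± 0.35 SE (adjusted p = 0.132), and 0.20 without AAV-RBM20 replicate 3. Oasl2, a ubiquitin-like relative of the 2′-5′ oligoadenylate synthetases, was at 3.2, 3.62 and 2.17 CPM against 3.98, 4.03 and 5.5 CPM, with groups that did not overlap (log2 fold change 0.59 ± 0.25 SE, adjusted p = 0.618, and 0.43 without AAV-RBM20 replicate 3). Oasl1, which restrains Irf7 translation, was low, at 0.197 to 0.418 CPM against 0.224 to 0.782 CPM.

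The synthetases that make the activator of RNase L were low. Oas1a was at 0.246, 0.671 and 0.589 CPM in AAV-GFP and at 0.752, 0.697 and 0.844 CPM in AAV-RBM20, with groups that did not overlap, but 40.9% of its 100-base words occur in Oas1g and the value is uncertain. Oas2 was at 1.31 to 3.31 CPM against 2.25 to 3.31 CPM. Oas3, which did not pass the filter, had 3, 1 and 24 counts in AAV-GFP and 4, 2 and 52 counts in AAV-RBM20, so that in both groups most of its counts came from replicate 3. Eif2ak2, the RNA-activated kinase PKR and the group's most abundant member by CPM, was at 5.9, 6.71 and 5.43 CPM against 6.36, 6.32 and 7.17 CPM (log2 fold change 0.14 ± 0.15 SE, adjusted p = 0.798).

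The GTPases held the largest differences and the strongest dependence on 1 library. Iigp1 (also Irga6), an immunity-related GTPase that interferon gamma induces and that attacks vacuoles of intracellular parasites, was at 18.5, 19.1 and 19.6 CPM in AAV-GFP and at 17.0, 19.7 and 277 CPM in AAV-RBM20. The first 5 values spanned 17.0 to 19.7 CPM, and the sixth was 15.1 times the mean of the other 2 AAV-RBM20 libraries. The log2 fold change was 2.45 ± 1.00 SE (adjusted p = 0.618), with the block 1.15 ± 1.24 SE (adjusted p = 0.67), by limma-voom 1.25, and -0.047 without AAV-RBM20 replicate 3. Igtp (also Irgm3; chr11:58199556-58207591), a regulator that guards host membranes from the effector GTPases, was at 6.37, 6.37 and 10.3 CPM against 4.71, 6.39 and 90.6 CPM. The value in AAV-RBM20 replicate 3 was 16.3 times the mean of the other 2, while in AAV-GFP the same ratio was 1.61 (log2 fold change 2.14 ± 1.03 SE, adjusted p = 0.641, and -0.46 without that library).

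The other interferon gamma-inducible GTPases also had their highest value in AAV-RBM20 replicate 3. Irgm1 (chr11:48861968-48871683), a regulator of autophagy and of the other immunity-related GTPases, was at 13.7, 15 and 16.4 CPM in AAV-GFP and at 14.5, 15.7 and 75.4 CPM in AAV-RBM20. Gbp2 (chr3:142620602-142638008), a guanylate-binding protein that coats microbial vacuoles, was at 6.57, 6.33 and 8.7 CPM against 6.2, 6.82 and 27.8 CPM. Gbp7 and Gbp3, its neighbours on chromosome 3, reached 50.4 and 18.5 CPM in AAV-RBM20 replicate 3 and lay at 10.9 to 16.3 CPM and 4.27 to 6.4 CPM in the other 5 libraries. In all 4 genes AAV-RBM20 replicates 1 and 2 lay within or below the AAV-GFP range, and the log2 fold changes of 0.77 to 1.23 were -0.19 to 0.016 without the third library. Values of these 4 are given by a choice made after they were seen. Irgm1 and Gbp2 share 0% of their 100-base words with another gene, Igtp 5.16% and Gbp7 10%.

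The Mx genes encode dynamin-like GTPases that type I interferon induces, and they differed from each other. Mx2 was at 0.467, 0.647 and 0.589 CPM in AAV-GFP and at 0.88, 1.02 and 0.865 CPM in AAV-RBM20. Each AAV-RBM20 value exceeded each AAV-GFP value and replicate 3 was the lowest of the 3, so the log2 fold change of 0.69 ± 0.30 SE (adjusted p = 0.632) was 0.74 without it. Mx1, too low for the test, had 5, 2 and 7 counts against 18, 6 and 48 counts, or 0.123, 0.0479 and 0.133 CPM against 0.33, 0.149 and 0.988 CPM. Its groups did not overlap, and its value in AAV-RBM20 replicate 3 was 4.12 times the mean of replicates 1 and 2, where Gbp2 was at 4.28 times and Mx2 at 0.91 times.

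**Figure D3:**
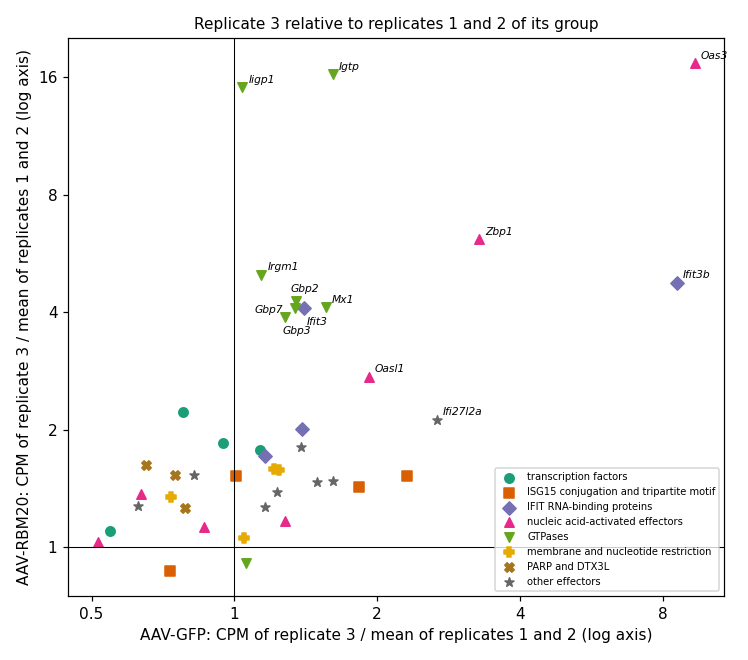
Ratio of CPM in replicate 3 to the mean of replicates 1 and 2 of the same group, for the 42 interferon-stimulated genes, in AAV-GFP (horizontal, log axis) and AAV-RBM20 (vertical, log axis), with symbols by role. Iigp1 and Igtp are at 15.1 and 16.3 on the AAV-RBM20 axis and at 1.04 and 1.61 on the AAV-GFP axis, whereas Ifit3b, Zbp1 and the low-count Oas3 are high on both.

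The genes of membrane and nucleotide restriction were close between the groups, with a median log2 fold change of 0.17 over 4 members and -0.029 without AAV-RBM20 replicate 3. Cmpk2 (chr12:26469204-26479837), a nucleotide kinase next to Rsad2 that supplies the substrate of its enzyme, had the narrowest replicates of these 4. It was at 3.3, 3.19 and 3.4 CPM in AAV-GFP and at 4.14, 4.01 and 4.3 CPM in AAV-RBM20, so the groups were apart (log2 fold change 0.33 ± 0.16 SE, adjusted p = 0.642, and 0.31 without AAV-RBM20 replicate 3). Rsad2, which encodes viperin, was at 4.99, 5.89 and 4.01 CPM against 5.26, 5.5 and 7.25 CPM, and its groups overlapped. Ifitm3, which blocks virus entry at endosomes and had the highest level of all members per kilobase of exon (21.2 CPM per kb over the 6 libraries), was at 11.9, 14.3 and 16.2 CPM against 12.1, 12.4 and 19.3 CPM. Its log2 fold change was 0.046 ± 0.21 SE (adjusted p = 0.961). Bst2, the tether of budding virions, was at 3.26 to 4.05 CPM against 3.08 to 4.98 CPM.

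Parp9, Parp14 and Dtx3l act in ADP-ribosylation and ubiquitylation. Parp14 (chr16:35832874-35871544), a mono-ADP-ribosyltransferase, was at 20.9, 20.4 and 13.4 CPM in AAV-GFP and at 23.8, 26.0 and 40.6 CPM in AAV-RBM20. It had the smallest unadjusted p of the members in edgeR (0.0195, adjusted p = 0.618), with a log2 fold change of 0.73 ± 0.25 SE that was 0.46 without AAV-RBM20 replicate 3. Its groups did not overlap, with the lowest value in AAV-GFP replicate 3 and the highest in AAV-RBM20 replicate 3. Parp9 was at 11.3, 11.5 and 8.55 CPM against 10.4, 11.9 and 17.2 CPM, and its partner Dtx3l at 18.3 to 23.8 CPM against 23.4 to 29.7 CPM. Both genes overlap on opposite strands, and reads from one could have been counted for the other if the strand was not used.

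The other 8 effectors (Ifi27, Ifi27l2a, Ifi35, Ifi44, Xaf1, Rtp4, Samd9l and Lgals3bp) had log2 fold changes of 0.042 to 0.45, with a median of 0.28 and 0.05 without AAV-RBM20 replicate 3. Xaf1, which antagonises inhibitors of apoptosis, was at 4.33, 4.48 and 2.75 CPM against 5.35, 4.3 and 6.16 CPM (log2 fold change 0.45 ± 0.24 SE, adjusted p = 0.654). Rtp4, an interferon-induced receptor transporter protein, was at 1.84, 1.89 and 2.79 CPM against 2.9, 2.21 and 3.75 CPM (log2 fold change 0.44 ± 0.28 SE, adjusted p = 0.668). In both genes 1 AAV-RBM20 library lay inside the AAV-GFP range. Ifi27, a mitochondrial protein, was at 13.2, 11.4 and 15.1 CPM against 14.2, 11.8 and 18 CPM, with replicate 3 the highest in each group. None of the 8 had groups that were apart.

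Libraries of the same replicate number were also set side by side and are called pairs here. The check described under the processing cannot show that the libraries numbered 1 and 2 are true pairs. The third pair carried most of the difference. In it 38 of 40 tested members were higher in AAV-RBM20, where 49.8% of all genes were, with a median log2 CPM difference of 0.78. In pairs 1 and 2, 28 of 40 were higher in each, where 51.2% and 49.9% of all genes were, with medians of 0.16 and 0.051. Over all genes the medians were 0.0091, -0.00039 and -0.0026 for pairs 1, 2 and 3.

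Markers of T and NK cells and of macrophages were highest in the same library as most members. The summed CPM of all 42 members was 258, 266 and 269 in AAV-GFP against 274, 283 and 858 in AAV-RBM20, and without the GTPases it was 196, 201 and 190 against 215, 214 and 316. The summed CPM of 8 T and NK cell markers (Cd3d, Cd3e, Cd3g, Cd4, Cd8a, Nkg7, Gzmb and Ncr1) was 0.148, 0.503 and 1.1 in AAV-GFP against 0.88, 0.771 and 5.42 in AAV-RBM20. All 8 were highest in AAV-RBM20 replicate 3, as were 16.5% of all genes tested. Only Cd4 passed the low-count filter, and in AAV-GFP replicates 1 and 2, 4 and 2 of the 8 were at 0. Each of the 8 was at 0.422 CPM or less in the other 5 libraries. In the library with the high GTPase values Cd4 was at 1.15 CPM, Nkg7 at 1.07, Cd3e at 0.947, Cd8a at 0.741 and Cd3g at 0.7. Gzmb, Cd3d and Ncr1 were lower there, at 0.288, 0.268 and 0.247 CPM. Ncr1 was at 0.228 CPM in AAV-GFP replicate 3.

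The 12 macrophage markers summed to 35.2, 32.5 and 115 CPM in AAV-GFP and to 83.1, 74.5 and 168 CPM in AAV-RBM20. All 12 were highest in AAV-RBM20 replicate 3, as were 16.5% of all genes tested. Ccr2, a receptor of recruited monocytes, was at 1.55, 1.34 and 5.36 CPM against 4.8, 3.93 and 14.0 CPM. Fcgr1, which interferon gamma itself induces, was at 0.271, 0.264 and 0.399 CPM against 0.312, 0.522 and 1.28 CPM. The macrophage sum in AAV-GFP replicate 3 was above that in AAV-RBM20 replicates 1 and 2. The 4 B cell markers summed to 0.541 to 1.44 CPM against 0.771 to 1.65 CPM, and 3 of the 4 were highest in AAV-RBM20 replicate 3. Outside the immune lists, 6 fibro-adipogenic markers, such as Pdgfra and Col1a1, summed to 529, 496 and 1020 CPM against 985, 833 and 1090 CPM. Their sum was also highest in AAV-RBM20 replicate 3, as were 2 of the 6 markers. The 6 endothelial markers summed to 337, 380 and 158 CPM against 375, 346 and 247 CPM. Their sum was lowest in the library numbered 3 of each group, and 0 of the 6 were highest in AAV-RBM20 replicate 3. Of the 3 plasmacytoid dendritic cell markers, Siglech was at 0.192 to 0.589 CPM against 0.224 to 0.33 CPM, Ccr9 at 0.0479 to 0.057 CPM against 0 to 0.0824 CPM, and Tcf4, which other cells of muscle also express, at 122 to 138 CPM against 141 to 164 CPM. The 8 fibre genes summed to 121000 to 130000 CPM in AAV-GFP and to 112000, 122000 and 78800 CPM in AAV-RBM20. In bulk muscle, fewer or more cells of a type and less or more RNA per cell cannot be told apart, and the part of these cell types in the values of the interferon-stimulated genes was not tested.

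**Figure D4:**
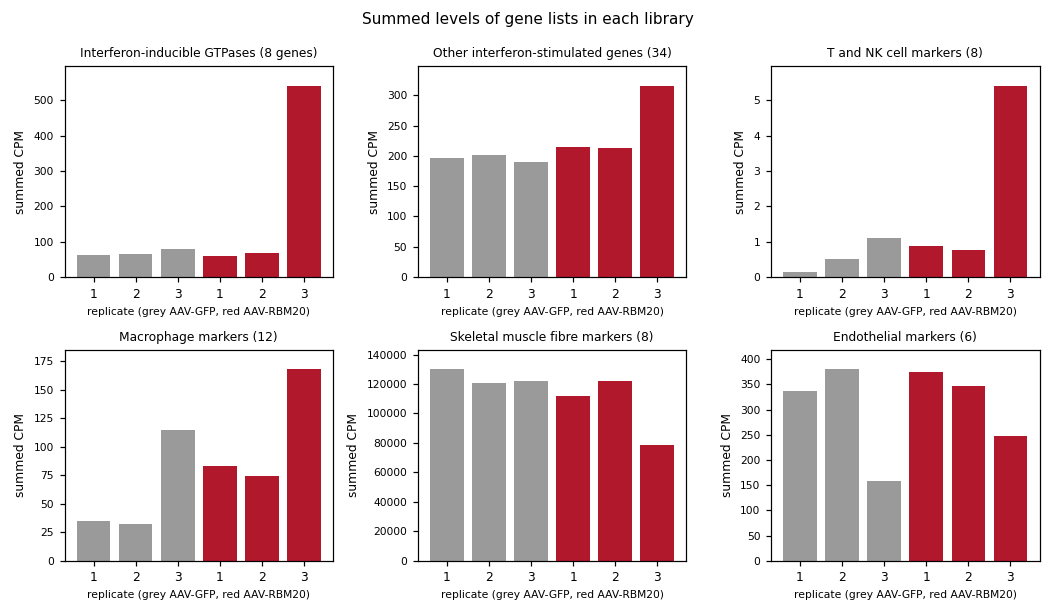
Summed CPM in each library of the 8 interferon-inducible GTPases, the other 34 interferon-stimulated genes, and the markers of T and NK cells (8), macrophages (12), skeletal muscle fibres (8) and endothelial cells (6). Bars start at 0, grey is AAV-GFP and red AAV-RBM20. AAV-RBM20 replicate 3 has the highest bar for both sets of interferon-stimulated genes and for the T and NK cell (5.42) and macrophage (168) markers, and the lowest for fibre markers (78800).

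Levels per length were compared as CPM per kilobase of exon averaged over the 6 libraries. Ifitm3 at 21.2 was highest, followed by Iigp1 at 10.6, Igtp at 10.3 and Ifi27 at 9.49, where the values for Iigp1 and Igtp rest mostly on AAV-RBM20 replicate 3. Oas3 at 0.0412 and Mx1 at 0.078 were lowest, and 7 of the 42 members had a mean under 1 CPM.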

How the data were processed

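Stranded, ribosomal RNA-depleted RNA-seq libraries were prepared by the authors from TA muscle, and reads were mapped to mm10 with HISAT2 and counted per gene with HTSeq. The deposited counts are raw whole numbers. Versions, annotation release and strand setting were not given in the sources used here, so the 15 members that overlap exons of another gene are uncertain. A second deposited table holds a signal, the counts divided by 1 DESeq2 size factor per library, and was used only for a check. Groups were taken from the labels. The quasi-likelihood test of edgeR 4.0.16 (R 4.3.3; filterByExpr, TMM, robust fit, no covariate) was fitted to 17222 genes, with Benjamini-Hochberg adjustment over all of them and a threshold of 0.05. DESeq2 1.42.0, limma-voom (limma 3.58.1), a replicate block, other normalisations and filters, and leaving out libraries were alternatives, 16 in all. The fit was tested on simulated data. The standard error is the log2 fold change divided by the square root of F. Total counts of 41400132 to 54226618 set the counting precision. Gene symbols and coordinates are from GENCODE on GRCm38.

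Members, lists, roles and tests were chosen with earlier results of these data known. The text gives, in each of 8 role groups, the 2 tested members with the largest absolute log2 fold change and the one with the highest mean CPM, plus Ifit3 and Ifit3b, Rbm20, Bmal1, the ligands and the pathway genes with the largest log2 fold changes, of which 1 is not reported here, and other members were added after their values were seen. Promoter windows came from RefSeq tables on GRCm38.p6. Deviations from the group mean log2 CPM correlated across genes at 0.418, 0.201 and 0.484 between libraries numbered 1, 2 and 3, and at up to 0.216 between differently numbered libraries. Each was above 0.1, and the numbers in the titles were treated as pairs. In the descriptions and count columns, the numbers of AAV-RBM20 follow on from those of AAV-GFP. The groups thus share numbers only in the titles, and no label explains what these numbers mean. Replicates of a group differed by more than sampling noise, and none was counted as a copy of another.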

Additional observations from a re-analysis of the deposited data

How the results depend on the processing

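No member passed an adjusted p of 0.05 under any of the 16 alternatives, and the smallest adjusted p of a named member was 0.0977, for Parp14 without both libraries numbered 3. Members at an unadjusted p under 0.05 in edgeR numbered 5 of 40 in the planned test, beside 1360 of all 17222 genes. They numbered 0 to 9 when single libraries were left out. Without AAV-RBM20 replicate 3 it was 0 of 40, beside 1020 of 17497 genes. Without AAV-RBM20 replicate 1 it was 9 of 41, beside 675 of 17676 genes. Without both libraries numbered 3 it was 3 of 40, beside 3196 of 17250 genes. The median log2 fold change of the members, 0.37 in the planned test, was 0.09 to 0.54 when single libraries were left out, 0.098 without both libraries numbered 3, and 0.36 to 0.41 under the other alternatives. Genes past the threshold over the whole table numbered 0 in the planned test, 8 without a low-count filter, 25 with the replicate block, 75 by DESeq2, 513 by DESeq2 with the replicate block and 690 without both libraries numbered 3. The block changed no call of a member. Of 333 values of named genes, 17 reversed sign. When single libraries were left out, the log2 fold change ranged from -0.20 to 0.17 for Ifitm3, -0.89 to 2.10 for Ifit3b, -0.025 to 0.53 for Irf9, -0.21 to 1.15 for Ifit3, -0.047 to 2.96 for Iigp1, -0.46 to 2.66 for Igtp and -0.015 to 0.28 for Ifi27. Without both libraries numbered 3 it was -0.056 for Irf9, -0.028 for Ifit3, -0.029 for Iigp1, -0.20 for Igtp, -0.011 for Rsad2, -0.093 for Ifitm3 and -0.021 for Parp9. The cause of these shifts was not tested. DESeq2 gave neither an unadjusted nor an adjusted p for Iigp1 and Igtp. With the replicate block it gave no adjusted p for 4 members. The statement that no member passed does not cover these members in those fits. At this depth the ligands could not be compared.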
